A study of Mus musculus with 2 samples.

Results

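Dendritic cells and class II monocytes of mouse back skin were taken as the barcodes that carried abundant Cd74 and myeloid adaptor transcripts but not the defining transcripts of C1q macrophages, Langerhans cells, B cells or T cells. A barcode was first kept if it had at least 500 detected genes and under 20% of its unique molecular identifiers (UMIs) in mitochondrial genes. A kept barcode was a member if it had at least 20 UMIs of Cd74, at least 2 UMIs of Tyrobp and Fcer1g together, fewer than 3 UMIs of C1qa, C1qb and C1qc together, no UMI of Cd79a, fewer than 2 UMIs of Cd207 and no UMI of Cd3d, Cd3e or Cd3g. This left 158 of 7248 kept barcodes, 49 in the Card14KI library and 109 in the WT library. The rule used these genes in both libraries, so their levels below describe the members and support nothing.

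Dendritic cells take up antigen in tissue, load peptides on MHC class II molecules and carry them to T cells in draining lymph nodes. Conventional type 2 dendritic cells are the main dendritic cells of the dermis, type 1 cells cross-present antigen to CD8 T cells, and monocytes that enter skin from blood can switch on class II genes. CD74 is the invariant chain that escorts class II molecules to the compartment where cathepsin S, the product of Ctss, trims it away.

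The study compared single-cell RNA of full-thickness back skin from a mouse with a knocked-in Card14 mutation (Card14KI, genotype given as Card14 KI +/+) and a wild-type mouse (WT), both C57BL/6 and 12 months old, with 1 mouse and 1 library per genotype. Its title places it in research on the IL-17 axis and IL-36 in mice that model the scaling skin disorder pityriasis rubra pilaris. Both skins were digested enzymatically for 73 min, dissociated mechanically and freed of dead cells before 10x Genomics 3' capture. Which Card14 mutation the mouse carried, the sex of the mice and how the skin looked were not given in the sources used here. With 1 library per genotype nothing could be tested between genotypes: every interval below is a 95% interval that covers counting error only, and a difference between libraries is one between 2 mice and 2 preparations.

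The members held 398484 UMIs in the Card14KI library and 869155 in the WT library. A member had a median of 6451 UMIs (range 1112 to 68943) in Card14KI and 7326 UMIs (range 1019 to 28922) in WT, with 1819 and 1979 median detected genes. No member barcode occurred in both libraries, and 2 of all kept barcodes did. Members had 1 UMI of Card14 in the Card14KI library and none in the WT library, and a 3' count cannot read the mutation, so it checks neither label.

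A few members carried much RNA of other cells, and results are given with and without them. Of the 158 members, 4 had at least 20 UMIs of a list of 7 keratinocyte genes or of a list of 7 fibroblast genes. In Card14KI this was 1 barcode with 68943 UMIs, 17.3% of all Card14KI member UMIs, which had 2308 UMIs of the keratinocyte list, 47 of Cd74 and none of Lyz2 or Il1b; the only Card14 UMI was in it. In WT these were 3 barcodes with 28922, 24961 and 22524 UMIs, together 8.79% of the WT member UMIs, of which 1 had 68 keratinocyte-list UMIs and the others had 698 and 1486 fibroblast-list UMIs. Without these mixed barcodes, 48 Card14KI and 106 WT members remained, with 329541 and 792748 UMIs. Scrublet's highest doublet scores marked 0 Card14KI and 7 WT members, 2 of the mixed barcodes among them.

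The share of kept barcodes that were members was 1.68% (exact interval 1.25 to 2.22%) in Card14KI skin and 2.51% (2.07 to 3.03%) in WT skin, a difference of -0.832 percentage points (Newcombe interval -1.48 to -0.149). C1q macrophages, taken as barcodes with at least 3 C1q UMIs and myeloid adaptors, made up 1.30% (38 barcodes) in Card14KI and 1.96% (85 barcodes) in WT. Mixed barcodes were not removed from the C1q macrophages, so their levels below include RNA of other cells. In Card14KI, 1 C1q macrophage barcode held 76882 of the 273912 UMIs of that group. Members made up 56.3% of the 87 barcodes of these 2 myeloid groups in Card14KI and 56.2% of 194 in WT, a difference of 0.136 points (-12.3 to 12.3). The share depends on where Cd74 is set: at 50 UMIs or more the difference was -0.518 points, with an interval from -1.10 to 0.0935 that includes 0. Fibroblasts were 35.4% of kept barcodes in Card14KI and 43.4% in WT, and the part of this difference in the shares of members was not tested.

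The threshold on Cd74 did not fall in a gap. In Card14KI, 1 member had 20 to 29 Cd74 UMIs and 1 barcode that met the rest of the rule had 10 to 19. In WT these were 11 members and 10 barcodes. The 11 WT members just inside had H2-Aa at 2359 CPM (counts of a gene scaled to 1e6 UMIs of the same barcodes) and Lyz2 at 13378 CPM, and the 10 WT barcodes just outside had H2-Aa at 666 CPM and Lyz2 at 2104 CPM. Few barcodes lay near the C1q limit: 1 Card14KI and 8 WT members had 1 or 2 C1q UMIs, and 2 Card14KI and 4 WT barcodes just outside it had 3 to 5. The other 48 Card14KI and 101 WT members had no C1q UMI.

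Every member had UMIs of the class II genes H2-Aa and H2-Ab1 and, by the rule, of Cd74. H2-Aa, the class II alpha chain, was at 7975 CPM in Card14KI members and 8257 CPM in WT members, against 92.3 and 131 CPM in the other kept barcodes of those libraries, and all 158 members had a UMI. Single members had 11 to 152 H2-Aa UMIs in Card14KI (median 63) and 3 to 222 in WT (median 56), so the libraries overlapped over nearly their whole range. The beta chain H2-Ab1 was at 7275 CPM in Card14KI and 6907 CPM in WT, and H2-Eb1, the second beta chain, at 8163 and 7036 CPM. Cd74 itself was at 17338 CPM in Card14KI and 16875 CPM in WT. Ctss was at 871 and 1015 CPM and was detected in 95.9% of Card14KI and 99.1% of WT members. The peptide exchange chain H2-DMa was at 851 and 767 CPM, and Ciita, the coactivator that switches class II genes on, at 62.7 and 63.3 CPM. These levels include the mixed barcodes. Together Cd74, H2-Aa, H2-Ab1 and H2-Eb1 took a median of 5.19% of a member's UMIs in Card14KI and 3.69% in WT, against 0.864% and 2.59% in C1q macrophages.

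The stretch before the start of class II genes is shown because these genes are known to be switched on together through a shared promoter module, the X and Y boxes. The 150 bases before the annotated start are given 5' to 3' on the gene's strand from RefSeq (GRCm38.p6), with the Y box TGATTGG and a 16-letter X-box stretch in capitals. The stretch is the earlier run of capitals in H2-Eb1, H2-DMb1 and H2-Ob, and its letters 4, 5, 9 and 10 could be any base in the search. The window of H2-Aa lies at chr17:34287824-34287973 (minus strand), that of H2-Eb1 at chr17:34305717-34305866 (plus), that of H2-DMb1 at chr17:34153041-34153190 (plus) and that of H2-Ob at chr17:34238755-34238904 (plus).
H2-Aa: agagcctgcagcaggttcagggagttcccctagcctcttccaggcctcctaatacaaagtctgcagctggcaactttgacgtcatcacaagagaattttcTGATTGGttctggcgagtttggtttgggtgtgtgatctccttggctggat
H2-Eb1: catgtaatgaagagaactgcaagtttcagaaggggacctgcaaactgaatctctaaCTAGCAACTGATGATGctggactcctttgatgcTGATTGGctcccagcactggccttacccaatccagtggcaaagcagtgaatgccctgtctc
H2-DMb1: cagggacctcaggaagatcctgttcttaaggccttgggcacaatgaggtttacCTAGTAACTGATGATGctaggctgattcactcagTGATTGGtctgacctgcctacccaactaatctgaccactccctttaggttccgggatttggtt
H2-Ob: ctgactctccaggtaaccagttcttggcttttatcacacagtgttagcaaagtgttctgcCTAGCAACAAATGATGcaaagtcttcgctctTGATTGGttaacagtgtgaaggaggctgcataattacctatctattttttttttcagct
Both motifs were searched on both strands of the 150-base windows, and all hits here were on the gene's own strand without overlap. TGATTGG was in the windows of 6 of 11 matched genes of the class II list, and in 1877 of all 32851 windows (5.71%). The X-box stretch was written after these windows had been read, so its presence here is fixed by that choice. It was in 4 windows of 32851 (0.0122%), those of H2-Eb1, H2-DMb1, H2-DMb2 and H2-Ob. The Y box began 50 bases before the start in H2-Aa, 61 in H2-Eb1, 63 in H2-DMb1 and 59 in H2-Ob. H2-DMb1, a subunit of the peptide exchanger, was at 595 CPM in Card14KI and 489 CPM in WT, and H2-Ob, a subunit of its inhibitor, at 35.1 and 40.3 CPM. A match describes letters only and is no evidence of binding in these cells.

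Beside class II, the genes that stood out most from the other kept barcodes were myeloid. With the genes of the rule left out (Cd74, Tyrobp and Fcer1g among them) and ranked by the smaller of the ratios in the 2 libraries, the 12 leading genes were H2-Aa, H2-Ab1, H2-Eb1, H2-DMa, Ctss, Il1b, Lyz2, Mgl2, Ccr2, Ms4a6c, Alox5ap and Wfdc17. Mgl2, a galactose-binding lectin of dermal type 2 dendritic cells, was at 590 CPM in Card14KI members and 632 CPM in WT members, against 4.74 and 7.06 CPM in the other barcodes. Ccr2, the receptor that brings monocytes out of the bone marrow, was at 376 and 567 CPM, against 4.14 and 12.0 CPM in the other barcodes. Alox5ap, the activating protein of leukotriene synthesis, was at 655 and 687 CPM, and Wfdc17, a small secreted protease-inhibitor-like protein, at 1169 and 1175 CPM. These genes are described and not tested, since the members were chosen by correlated readouts.

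**Figure D1:**
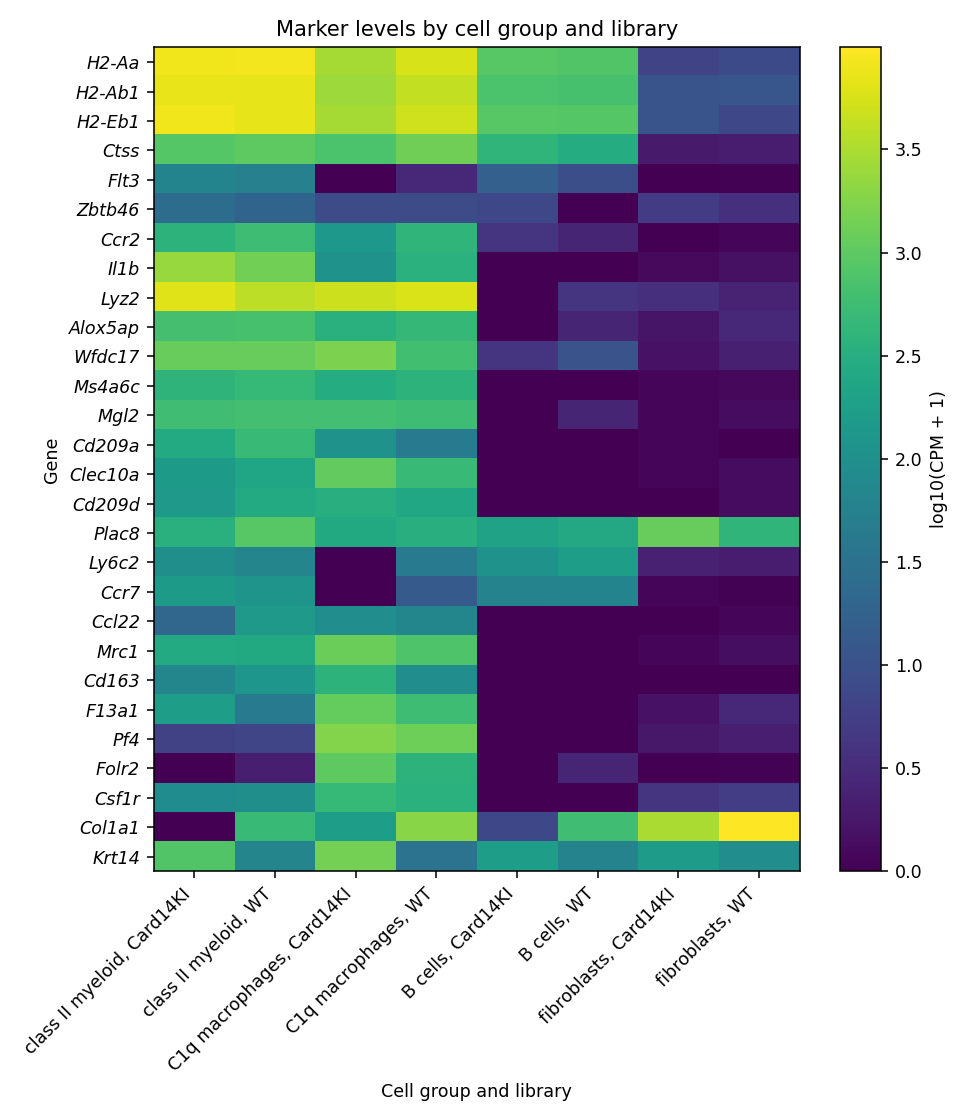
Heat map of the level of marker genes in class II myeloid members, C1q macrophages, B cells and fibroblasts, as log10 of CPM + 1, with the Card14KI column left of the WT column in each group. H2-Aa and H2-Eb1 are bright in both member columns, Il1b and Flt3 are brighter in members than in C1q macrophages, and Pf4 is at 5.02 and 5.75 CPM in Card14KI and WT members, against 1793 and 1295 CPM in their C1q macrophages.

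Of the dendritic genes, Flt3 and Cd209a separated members from C1q macrophages more than Mgl2 did. Flt3, the growth factor receptor of dendritic cells, was at 62.7 CPM in Card14KI members and 54.1 CPM in WT members, against 0 and 1.80 CPM in C1q macrophages. It was detected in 24.5% of Card14KI and 28.4% of WT members, against 0 of 1030 Card14KI and 1 of 1880 WT fibroblasts, whose median depths were 6070 and 7676 UMIs. Zbtb46, a transcription factor of conventional dendritic cells, had 10 UMIs in Card14KI and 16 in WT, or 25.1 and 18.4 CPM. Cd209a, a lectin of type 2 dendritic cells, was detected in 46.9% of Card14KI and 59.6% of WT members, against 34.2% and 21.2% of C1q macrophages. Mgl2 was detected in 59.2% of Card14KI and 62.4% of WT members, but in 81.6% and 65.9% of C1q macrophages, at 628 and 567 CPM there. Batf3 and Irf8, transcription factors known for type 1 cells, were at 100 and 73.6 CPM and at 105 and 65.6 CPM. Over both libraries, the type 1 gate defined below held 3 Batf3 UMIs and the type 2 gate 69. Irf8 had 39 and 19 UMIs in these gates. The Batf3 level therefore does not stand for type 1 cells. Irf4 and Klf4, needed for type 2 cells, were at 57.7 and 72.5 CPM and at 339 and 377 CPM; Klf4 was also at 1013 and 843 CPM in fibroblasts.

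The monocyte side rested on Lyz2, Ccr2 and smaller numbers of Ly6c2 and Plac8 UMIs. Lyz2, the lysozyme of monocytes and macrophages, was detected in 44 of 49 Card14KI and 99 of 109 WT members. It was also detected in 94.7% of Card14KI and 97.6% of WT C1q macrophages, so its detection alone does not mark a monocyte. Ly6c2, the surface marker of classical monocytes, was detected in 14.3% of Card14KI and 12.8% of WT members, against 0.971% and 0.426% of fibroblasts. Plac8, a monocyte gene, was detected in 28.6% of Card14KI and 28.4% of WT members. Plac8 was however present in 58.3% of Card14KI and 41.8% of WT fibroblasts, at 1165 and 406 CPM, so few Plac8 UMIs in a member do not mark a monocyte.

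Markers of other cell types were counted next. Folr2, a receptor of resident macrophages, had no UMI in Card14KI members and 1.15 CPM in WT members, against 1004 and 380 CPM in C1q macrophages. The 12 C1q macrophage genes summed to 758 CPM in Card14KI members and 693 CPM in WT members, against 7670 and 4759 CPM in C1q macrophages. Some genes of this list were common in members. Mrc1 was detected in 57.1% of Card14KI and 60.6% of WT members, against 86.8% and 83.5% of C1q macrophages. Csf1r was detected in 42.9% and 36.7% of members, against 89.5% and 77.6% of C1q macrophages. Some genes of the B cell (Ms4a1), T and NK cell (Trac, Trdc, Klrb1c) and mast cell (Fcer1a) lists were at 0 in both libraries, but others were detected. A count of 0 allows up to 7.53 CPM in Card14KI and 3.45 CPM in WT members. The summed levels were 75.3 and 109 CPM for the B cell list, 148 and 145 CPM for the T and NK list, 5.02 and 16.1 CPM for the neutrophil list and 30.1 and 19.6 CPM for the mast cell list. In the other kept barcodes these lists summed, in the same order, to 4140 and 6287, 129 and 130, 511 and 296, and 6.72 and 16.4 CPM. The T and NK and mast cell lists were thus not lower in members than in the other barcodes. The plasmacytoid dendritic list summed to 888 CPM in Card14KI and 547 CPM in WT with all members, and to 352 and 507 CPM without the mixed barcodes, and 0 Card14KI and 3 WT members had at least 2 UMIs of its genes Siglech and Ccr9. The keratinocyte list summed to 5948 CPM in Card14KI and 268 CPM in WT with all members, and to 188 and 168 CPM without the mixed barcodes. The fibroblast list summed to 87.8 and 2684 CPM with all members, and to 91.0 and 179 CPM without them. In C1q macrophages, from which mixed barcodes were not removed, the keratinocyte list summed to 8298 CPM in Card14KI and 209 CPM in WT. The fibroblast list summed there to 1369 and 8513 CPM, so differences between the libraries in C1q macrophages carry this limit.

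Members were sorted by 4 gates, each needing at least 2 UMIs over its genes and applied in this order: mature (Ccr7, Fscn1, Cacnb3), type 1 (Xcr1, Clec9a), type 2 (Cd209a, Mgl2, Clec10a) and monocyte (Ly6c2, Plac8, Chil3). The type 2 gate held most members, 32 of 49 in Card14KI (65.3%, exact interval 50.4 to 78.3%) and 66 of 109 in WT (60.6%, 50.7 to 69.8%). The mature gate held 7 (14.3%) and 14 (12.8%), the monocyte gate 5 (10.2%, 3.40 to 22.2%) and 21 (19.3%, 12.3 to 27.9%), and the type 1 gate 1 and 2 members. No gate took 4 Card14KI and 6 WT members. These counts include the mixed barcodes. Without them the mature gate held 6 Card14KI and 13 WT members and the type 2 gate 32 and 64, and the others did not change. The monocyte share differed by -9.06 points between the libraries, with an interval from -19.2 to 4.10 that includes 0, and the type 2 share by 4.76 points (-11.7 to 19.8). Clec10a, a further lectin gene of this gate, was detected in 38.8% of Card14KI and 43.1% of WT members, but in 78.9% and 57.6% of C1q macrophages, so the gate by itself does not separate type 2 dendritic cells from those macrophages. Gate sizes could not be told apart at these numbers. Taken in any order, the monocyte gate held 26.5% of Card14KI and 28.4% of WT members. More than 1 gate was met by 11 Card14KI (22.4%) and 23 WT members (21.1%), so the gates overlapped. Whether the cell types themselves overlap was not tested.

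**Figure D2:**
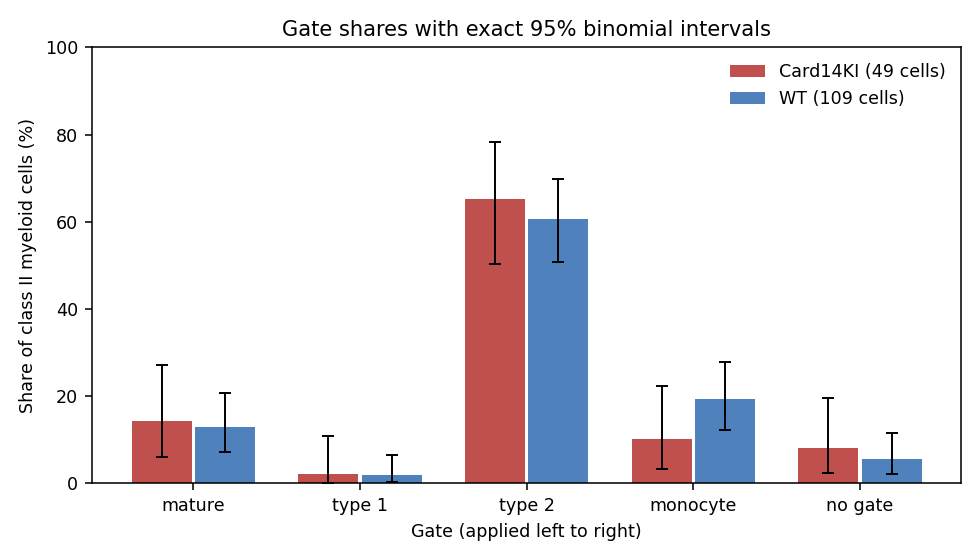
Bar chart of the share of members in each gate, in percent of the members of a library, with Card14KI (49 members) left of WT (109 members) and bars of the exact 95% interval. The type 2 gate is highest in both libraries (65.3% and 60.6%), and the intervals of the 2 libraries overlap in each gate.

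The gates differed in genes they did not use. Without the mixed barcodes and over both libraries, H2-Aa was at 10574 CPM in the mature gate (19 members), 10022 CPM in the type 2 gate (96 members) and 3404 CPM in the monocyte gate (26 members). Lyz2 ran the other way, with 1183, 4249 and 15523 CPM. Flt3 was at 88.6, 65.4 and 12.8 CPM, Irf4 at 127, 89.1 and 0 CPM, and Ccr2 at 272, 571 and 838 CPM. Cd83, a surface protein of activated dendritic cells, was at 968, 571 and 102 CPM. Since all gates come from the same cells and libraries, these values describe the gates.

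The genes leading each gate, with the gate's own genes left out, matched its name to different degrees. In the mature gate these included Ccl22, a chemokine of migrating dendritic cells (117 UMIs, 3 of 19 members), Il4i1, an amino acid oxidase of mature dendritic cells (17 UMIs, 6 members), Serpinb9, an inhibitor of granzyme B (34 UMIs, 6 members), and Il12b, the shared subunit of IL-12 and IL-23 (8 UMIs, 2 members, all WT). In the monocyte gate they were led by Thbs1, thrombospondin 1 (292 UMIs, 14 of 26 members), Hp, haptoglobin (48 UMIs, 14 members), Apoe, the lipid carrier apolipoprotein E (548 UMIs, 21 members), Gpnmb, a transmembrane glycoprotein of macrophages and melanocytes (34 UMIs, 1 WT member), Klk1, a kallikrein that is also on the plasmacytoid list (22 UMIs, 2 WT members), Gsr, glutathione reductase (70 UMIs, 21 members), Ctsl, the protease cathepsin L (50 UMIs, 15 members), and Gngt2, a G protein subunit (96 UMIs, 20 members). Lyz2 was found in 5 of 5 Card14KI and 18 of 21 WT monocyte-gate members. Among the WT members of this gate without Lyz2, 2 also had no Il1b or Ccr2 UMI. They had 20 and 15 UMIs of Plac8 and 15 and 4 of Ly6c2. What these cells are was not tested, so the monocyte gate and its share may include cells other than monocytes. In the type 2 gate Cd209e, a lectin of the Cd209 family, was in 33 of 96 members. The scavenger receptor gene Cd163, which is also on the C1q macrophage list, was in 31 of them. The first gene of that gate was the haemoglobin gene Hbb-bs, with 20 UMIs in 14 Card14KI members and 858 in 12 WT members (91.5 and 1717 CPM), which marks red cell RNA. Among the 10 members in no gate, the leading gene Ifit1, induced by interferon, had all of its 17 UMIs in 1 Card14KI member.

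**Figure D3:**
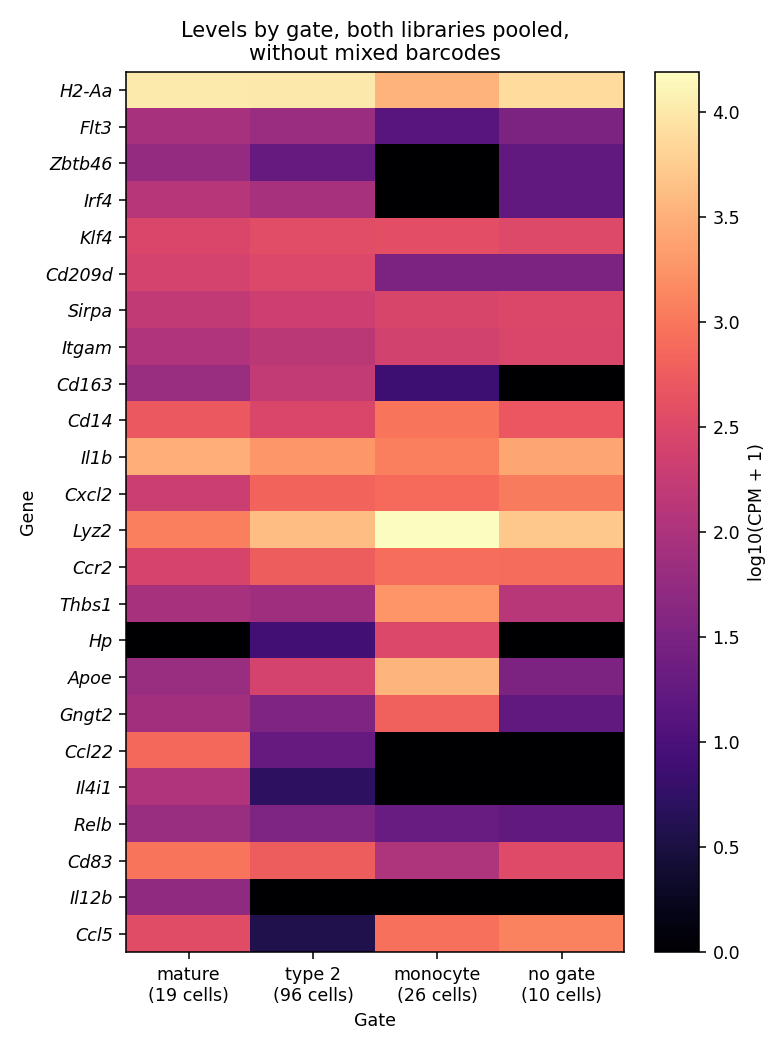
Heat map of gene levels by gate over both libraries, without the mixed barcodes, as log10 of CPM + 1, for the mature (19 members), type 2 (96), monocyte (26) and ungated (10) members. H2-Aa is at 10574 CPM in the mature gate and 3404 CPM in the monocyte gate, while Lyz2 is at 1183 and 15523 CPM there.

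Between the libraries most genes lay close together. Of 4466 genes with at least 30 UMIs over the members, 94 (2.1%) were at least 2-fold higher in Card14KI and 177 (3.96%) at least 2-fold lower, as the log2 ratio of CPM + 10. The median ratio of all tested genes was -0.12, so levels relative to the total were slightly lower for most genes in Card14KI. Without the mixed barcodes 35 of 3971 genes (0.881%) were higher and 103 (2.59%) lower, with a median of -0.07, and 22 of the higher and 70 of the lower genes were shared with the full set. With size factors from the median of ratios, 119 genes were higher and 128 lower, so 48.2% of the calls were higher in Card14KI against 34.7% by total UMIs. Below, higher and lower mean past 2-fold on this scale unless a ratio of CPM is given with its interval, which covers counting error only.

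Class II and class I genes differed little. None of 13 tested class II genes was past 2-fold in either direction, with a median log2 ratio of -0.05. None of 11 class I presentation genes was either (median -0.03). Without the mixed barcodes none of 13 class II and 10 class I genes was, and the medians were 0.06 and 0.04. The class II genes, with Cd74 of the rule among them, summed to 43450 CPM in Card14KI and 41869 CPM in WT. Without the mixed barcodes these sums were 52239 and 44493 CPM. H2-K1, a class I heavy chain, was at 1164 CPM in Card14KI and 948 CPM in WT. In the C1q macrophages, from which mixed barcodes were not removed, H2-Aa was at 2891 CPM in Card14KI and 5633 CPM in WT.

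Of the 5 markers given with these cells, Il1b had the widest gap between libraries. Il1b (chr2:129364570-129371139, minus strand, mm10), the cytokine precursor processed by the inflammasome, had 959 UMIs in Card14KI members and 1225 in WT members, or 2407 and 1409 CPM. The ratio was 1.71 (1.57 to 1.86), under the 2-fold mark, and 1.89 (1.74 to 2.06) without the mixed barcodes. A member had 0 to 138 Il1b UMIs in Card14KI (median 4) and 0 to 136 in WT (median 3), so the 2 libraries covered the same range. Il1b was detected in 34 Card14KI members (69.4%) and 70 WT members (64.2%), against 0.194% and 0.479% of fibroblasts; with every cell thinned to 2000 UMIs it was in 60.9% of 46 and 56.5% of 108 members, a difference of 4.39 points (-12.6 to 20.2). The top 5 Card14KI members and the top 11 WT members held 0.5 or more of the Il1b UMIs, without the mixed barcodes. Without the mixed barcodes, Il1b was at 5486 CPM in Card14KI and 1937 CPM in WT mature-gate members, at 2442 and 1657 CPM in type 2 members and at 1024 and 1183 CPM in monocyte members. With them, the mature gate had 2240 CPM in Card14KI and 1543 CPM in WT. In C1q macrophages Il1b was at 113 CPM in Card14KI and 353 CPM in WT, the opposite order.

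**Figure D4:**
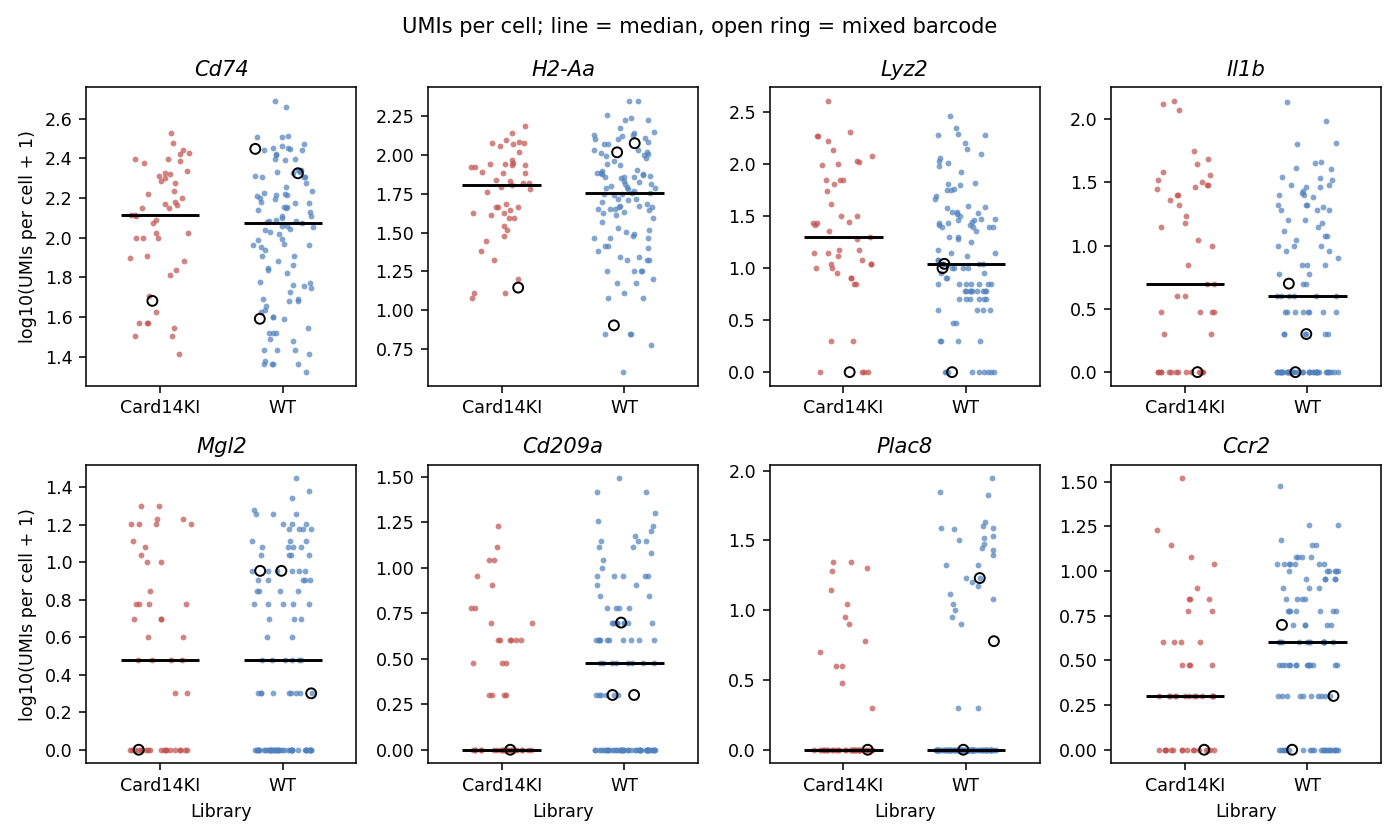
UMIs per member on a log10 scale (UMIs + 1) for Cd74, H2-Aa, Lyz2, Il1b, Mgl2, Cd209a, Plac8 and Ccr2, with 49 Card14KI members left of 109 WT members; each point is 1 member, the line is the median and a ring marks a mixed barcode. The libraries overlap for each gene, and the median of Lyz2 is 19 UMIs in Card14KI and 10 in WT.

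Cytokines that steer T cells were sparse apart from Il1b. Of 4 tested genes of that list 3 had higher and 1 lower levels in Card14KI, none past 2-fold (median 0.44, against -0.12 for all genes). Il18, an inflammasome cytokine, was at 60.2 CPM in Card14KI and 26.5 CPM in WT, a ratio of 2.28 (1.23 to 4.22) that passed 2-fold on the log2 scale only without the mixed barcodes. Tnf was at 67.8 and 48.3 CPM. Il23a, the IL-23 subunit, had 1 UMI in Card14KI and 2 in WT, and Il12b 0 and 8, so IL-23 could not be compared between the libraries at this depth. Il1rn, the antagonist of IL-1 receptors, was higher in Card14KI, with 45 UMIs (113 CPM) in 11 Card14KI members and 40 UMIs (46.0 CPM) in 18 WT members, a ratio of 2.45 (1.57 to 3.86). Il1rn was at 62.1 and 117 CPM in C1q macrophages.

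Receptors for IL-1, IL-36 and IL-17 were scarcely sampled. Of 5 tested genes in that list Il1rn was higher and Il1r1 lower (median -0.33). Il1rl2, the IL-36 receptor chain, had 5 UMIs in 10.2% of Card14KI members and 7 UMIs in 5.50% of WT members, against 43.4% and 36.6% of fibroblasts, so these shares cannot be read as expression. Il17ra, the shared IL-17 receptor chain, was at 22.6 CPM in Card14KI (9 UMIs) and 47.2 CPM in WT (41 UMIs), a log2 ratio of -0.81. Il1r1, the IL-1 receptor, had 5 UMIs in Card14KI and 37 in WT, but the ratio was 0.752 (0.215 to 2.15) without the mixed barcodes.

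The CARD and NF-kB genes, the pathway in which CARD14 acts in keratinocytes, did not differ past 2-fold. Of 16 tested genes 5 had higher and 11 lower levels in Card14KI, none past 2-fold (median -0.24, against -0.12 for all genes). Card9, the CARD scaffold of myeloid cells, had 3 UMIs in Card14KI and 7 in WT. Bcl10, the adaptor that CARD scaffolds recruit, was at 161 CPM in Card14KI and 135 CPM in WT, and Malt1, its protease partner, at 151 and 224 CPM with a ratio of 0.671 (0.494 to 0.901). The subunit genes Rel and Nfkb1 were at 532 and 634 CPM and at 236 and 270 CPM.

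Of 12 tested classical monocyte genes 4 had higher and 8 lower levels in Card14KI, with 2 lower past 2-fold, Plac8 among them (median -0.48). Of all 4466 tested genes 2756 had lower levels in Card14KI. Plac8 had 135 UMIs in Card14KI and 799 in WT, or 339 and 919 CPM, 2.71-fold lower (2.26 to 3.28), while the opposite order held in fibroblasts. Plac8 was at 2458 CPM in Card14KI and 4800 CPM in WT monocyte-gate members. It helps define that gate, so these levels are shaped by it and only describe it. With the same gate weights in both libraries the log2 ratio of Plac8 was -0.69, under 2-fold. Ly6c2 itself was at 95.4 CPM in Card14KI and 65.6 CPM in WT, but 1 member held 28 of the 38 Card14KI UMIs, and without the top member of each library its log2 ratio was -0.73. Among 3 tested non-classical monocyte genes Spn, the surface protein CD43, was lower, with 4 UMIs in 3 Card14KI members and 39 UMIs in 28 WT members (median -0.57).

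Ccr2 was detected in a smaller share of Card14KI members, with an interval clear of 0 only after 1 random thinning. Ccr2 (chr9:124101950-124113557, plus strand) had 150 UMIs in Card14KI and 493 in WT, a CPM ratio of 0.664 (0.549 to 0.798), not past 2-fold. It was detected in 32 Card14KI members (65.3%) and 86 WT members (78.9%), a difference of -13.6 points (-29.1 to 0.970). After thinning to 2000 UMIs, which left out 3 Card14KI members and 1 WT member, the shares were 34.8% and 63.0%, a difference of -28.2 points (-43.0 to -10.9). These thinned shares come from 1 random draw, and the interval does not cover the error of that draw. The size of the thinned difference is therefore uncertain beyond its interval. No fibroblast in Card14KI and 0.106% of those in WT had a Ccr2 UMI, so the background for this share was at or near 0. C1q macrophages ran the same way, with 26.3% in Card14KI and 43.5% in WT, and 20% and 29.5% after thinning. The intervals of both C1q macrophage differences included 0 (-32.7 to 1.41, and -24.2 to 8.76 after thinning). All 5 tested chemokine receptor genes, Cxcr4 among them, stayed under 2-fold (median -0.53). Cxcr4 was at 301 CPM in Card14KI and 444 CPM in WT.

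Inflammatory monocyte genes were mixed. Of 10 tested genes Il1rn was higher, and Ptgs2 and Thbs1 were lower (median -0.22). Ptgs2, the inducible prostaglandin synthase, had 23 UMIs in 7 Card14KI members and 201 UMIs in 23 WT members, 4.01-fold lower in CPM, but its log2 ratio was -0.81 after thinning, under 2-fold. Ptgs2 was also found in 36.9% of Card14KI and 25% of WT fibroblasts, at 650 and 288 CPM, and the part of free RNA was not tested. Thbs1 had 59 UMIs in Card14KI and 335 in WT, and with equal gate weights its log2 ratio was -0.37. Thbs1 led the monocyte gate without defining it, and its level there was 1761 CPM in Card14KI and 1888 CPM in WT. Without the mixed barcodes, type 2 members had 9.15 CPM in Card14KI (2 UMIs, 1 member) and 104 CPM in WT (52 UMIs, 4 members). Mature members had 0 and 127 CPM, the latter from 14 UMIs in 2 members.

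Type 2 dendritic genes lay lower without passing 2-fold. Of 12 tested genes 2 had higher and 10 lower levels in Card14KI and none passed 2-fold (median -0.46, and -0.25 without the mixed barcodes). Lower levels also held for 2756 of all 4466 tested genes (median -0.12). Without the mixed barcodes they held for 2268 of 3971 (median -0.07). Cd209a, a lectin of type 2 and monocyte-derived dendritic cells, had 109 UMIs in Card14KI and 434 in WT, or 274 and 499 CPM, a ratio of 0.548 (0.440 to 0.677). Within the type 2 gate Cd209a was at 370 CPM in Card14KI and 754 CPM in WT, but Mgl2 was at 942 and 866 CPM. Both genes help define that gate, so these levels are shaped by it and only describe it. Sirpa, the receptor for CD47, was at 128 CPM in Card14KI and 234 CPM in WT, for a ratio of 0.548 (0.395 to 0.748).

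Of 7 tested pan-dendritic genes Cd24a was higher (153 and 69.0 CPM in Card14KI and WT; median of the list -0.07). Of 4 tested type 1 genes Wdfy4, needed for cross-presentation, was lower, with 8 UMIs in 3 Card14KI members and 45 UMIs in 32 WT members (median 0.11), but at -0.93 without the mixed barcodes. Xcr1 had 3 and 4 UMIs and Clec9a 3 and 8, so type 1 cells were too few to compare. Of 10 tested mature dendritic genes Ccl22 and Ccl17 were lower (median -0.28). Ccl22, which draws CCR4-bearing T cells, had 8 UMIs in Card14KI and 122 in WT, but 1 WT member held 82.8% of the WT UMIs and the order reversed at 50 Cd74 UMIs or more (log2 ratio 0.45). Ccr7, the receptor for the path to lymph nodes, was at 148 CPM in Card14KI and 117 CPM in WT. Of 7 tested costimulation and checkpoint genes Tnfsf9 was lower (90.3 and 192 CPM; median 0.24), at -0.88 without the mixed barcodes, while Cd86 was at 113 and 90.9 CPM.

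The genes highest in Card14KI by the fixed rule rested on few cells in several cases. That rule took genes found in at least 10% of members of the library with the higher level and at 2 times the level of its other barcodes. Lyz1 (chr10:117287797-117292868, minus strand), which lies beside its near-identical copy Lyz2, had 215 UMIs in 12 Card14KI members and 46 UMIs in 12 WT members, or 540 and 52.9 CPM, a ratio of 10.2 (7.39 to 14.3). In the type 2 gate Lyz1 had 201 UMIs in Card14KI and 19 in WT, and in the monocyte gate 0 and 3, while Lyz2 had 421 and 2005 UMIs there; reads that match both copies make the split between them uncertain. Lyz2 was at 6414 CPM in Card14KI and 4022 CPM in WT, a ratio of 1.59 (1.51 to 1.68), and within the type 2 gate at 8768 and 2273 CPM. In C1q macrophages Lyz1 was likewise at 486 CPM in Card14KI and 115 CPM in WT.

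Retnla, a secreted protein of alternatively activated macrophages, was at 2319 CPM in Card14KI and 263 CPM in WT. It came from 5 Card14KI and 8 WT members, 1 of which held 50.8% of the Card14KI UMIs, and C1q macrophages had 12256 and 3793 CPM. F13a1, the coagulation factor XIII A chain, was found in 14 Card14KI and 17 WT members, at 168 and 41.4 CPM, a ratio of 4.06 (2.67 to 6.27), against 1117 and 572 CPM in C1q macrophages. It was the only gene past 2-fold among 6 tested C1q macrophage genes (median 0.08). The part of macrophage RNA in these 2 genes was not tested.

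Isg15, a ubiquitin-like protein induced by interferon, had 56 UMIs in 12 Card14KI members and 23 UMIs in 14 WT members, a ratio of 5.31 (3.22 to 9.04), with 48.2% of the Card14KI UMIs in 1 member. Cxcl10, an interferon-induced chemokine, had 84 and 71 UMIs, and 88.1% of the Card14KI UMIs were in 1 member; without the top member of each library its log2 ratio was -0.73. Of 5 tested interferon genes Isg15 was higher (median 0.47), and Ifi27l2a joined it without the mixed barcodes. The 15 listed interferon genes summed to 1877 CPM in Card14KI and 1041 CPM in WT members, but also to 4205 and 1373 CPM in fibroblasts and to 4841 and 2275 CPM in C1q macrophages, and the part of free RNA was not tested. The other genes highest in Card14KI were Pgf, placental growth factor (70.3 and 8.05 CPM, 54% of Card14KI UMIs in 1 member), Cd226, an adhesion receptor (57.7 and 12.7 CPM), Zfp992, a zinc finger gene (50.2 and 13.8 CPM, in 17 Card14KI and 10 WT members), Adam23, of the ADAM family (82.8 and 33.4 CPM), Tspan3, a tetraspanin (103 and 43.7 CPM), the predicted gene Gm6377 (80.3 and 33.4 CPM) and Txndc16, a thioredoxin-domain gene (18 and 14 UMIs).

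**Figure D5:**
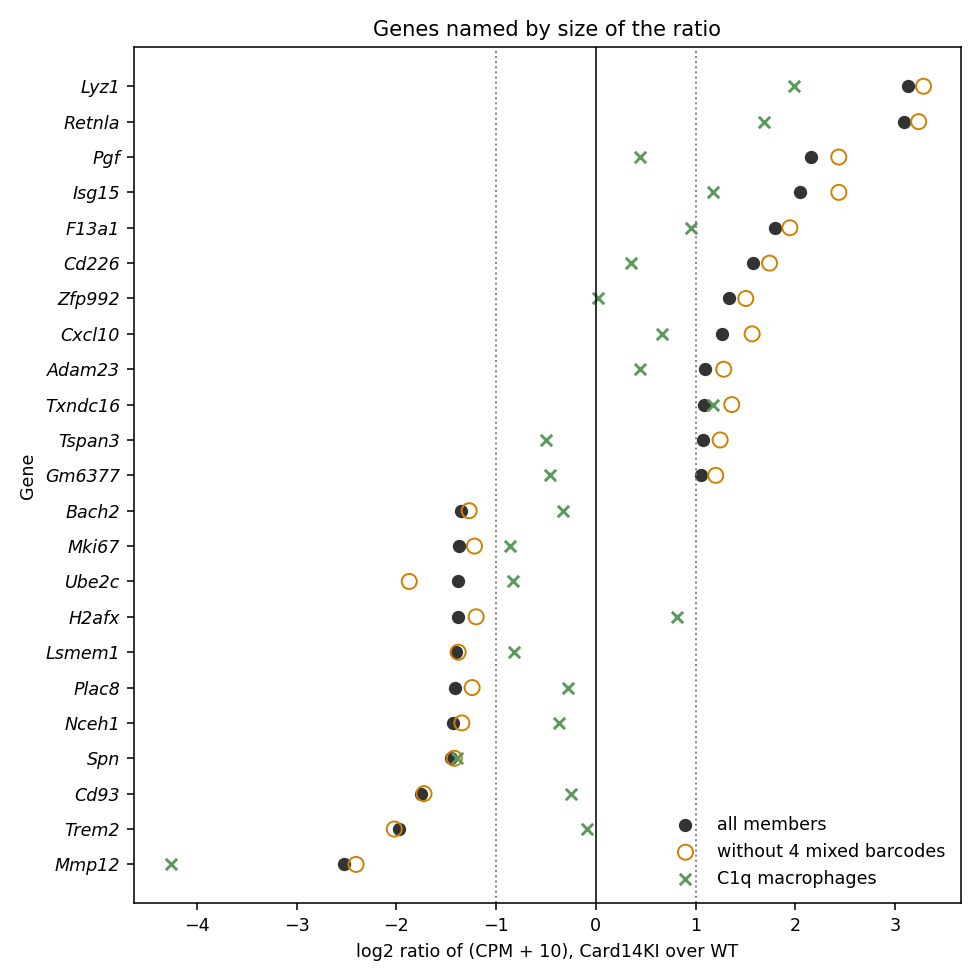
Log2 ratio of CPM + 10, Card14KI over WT, for genes named by the rule, in all members, without the 4 mixed barcodes and in C1q macrophages; dotted lines mark 2-fold in each direction. Lyz1 is highest at 3.13 and Mmp12 lowest at -2.52 in all members.

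The genes lowest in Card14KI were led by Mmp12. Mmp12 (chr9:7344381-7369499, plus strand), the macrophage elastase, had 40 UMIs in 7 Card14KI members and 543 UMIs in 36 WT members, or 100 and 625 CPM, 6.22-fold lower (4.51 to 8.81). In WT, 1 member held 23.4% of the UMIs and the top 6 held at least 0.5 of them without the mixed barcodes. The type 2 gate had 123 CPM in Card14KI and 894 CPM in WT. C1q macrophages showed the same order, with 21.9 and 599 CPM, and fibroblasts had 0 and 0.409 CPM. Mmp12 stayed past 2-fold lower in each of the 12 settings tried for it, the nearest to 0 being -1.44 after thinning.

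Lipid-handling genes were among the lowest. Of 6 tested retinoid and lipid genes Apoe, Trem2 and Ptgs2 were lower (median -0.90). Trem2, a lipid-sensing receptor of tissue macrophages, had 1 UMI in Card14KI and 34 UMIs in 14 WT members, a ratio of 0.0642 (0.00158 to 0.382), while it was at 110 and 117 CPM in C1q macrophages. Apoe was at 479 CPM in Card14KI and 1199 CPM in WT, a ratio of 0.400 (0.341 to 0.467), and of 0.297 (0.233 to 0.374) without the mixed barcodes, but its log2 ratio was -0.81, under 2-fold, without the highest doublet scores. Of the Apoe UMIs outside the mixed barcodes, 26 in 4 Card14KI and 522 in 17 WT members were in the monocyte gate. Other kept barcodes had Apoe at 4846 and 4237 CPM and C1q macrophages at 13764 and 4901 CPM, the opposite order. Nceh1, a neutral cholesterol ester hydrolase, had 8 UMIs in Card14KI and 62 in WT, 3.55-fold lower.

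Some cell cycle genes were lower as well. Mki67, the proliferation antigen, had 11 UMIs in 3 Card14KI members and 76 UMIs in 18 WT members, and of 9 tested cell cycle genes Mki67 and Top2a were lower (median -0.37). Ube2c, a ubiquitin-conjugating enzyme of mitosis, was at 45.2 CPM in Card14KI and 133 CPM in WT, and H2afx, a histone of the DNA damage response, at 22.6 and 74.8 CPM. Barcodes with at least 2 UMIs of Mki67 and Top2a made up 4 of 49 Card14KI members (8.16%) and 16 of 109 WT members (14.7%), a difference of -6.52 points (-15.8 to 5.78) that includes 0. The genes lowest in Card14KI also held Cd93, a phagocyte receptor (4 and 50 UMIs), Bach2, a transcriptional repressor (6 and 47), and Lsmem1 (6 and 49), beside Spn and Plac8 given above.

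Chemokines, pattern receptors and stress genes complete the lists. Of 11 tested chemokines Cxcl10 was higher and Ccl17 and Ccl22 lower (median -0.21), and without the mixed barcodes Ccl2 joined the higher and Cxcl16 the lower genes. Cxcl2 and Ccl4, attractants of neutrophils and of monocytes and T cells, were at 494 and 572 CPM and at 913 and 1114 CPM, while C1q macrophages had 7072 and 2117 CPM of Cxcl2. Ccl6, a CC chemokine of myeloid cells, was at 763 CPM in Card14KI and 419 CPM in WT, a ratio of 1.82 (1.56 to 2.13). None of 7 tested pattern recognition receptors was past 2-fold (median -0.49); Cd14 was at 271 and 431 CPM. Of 14 immediate early and heat shock genes 12 had higher levels in Card14KI, with the chaperone Dnajb1 past 2-fold (median 0.42). Without the mixed barcodes the median was 0.21 and none was past 2-fold. Among all 4466 tested genes, 1710 (38.3%) had higher levels in Card14KI. Fos, a transcription factor induced within minutes of a stimulus, was at 1453 CPM in Card14KI and 1218 CPM in WT members, and other kept barcodes ran the same way with 1823 and 1363 CPM. Of 3 tested Langerhans genes 2 were higher, Mfge8 among them (median 1.14), and of 3 plasmacytoid genes Ly6d was (median -0.49). Without the mixed barcodes none of these lists had a gene past 2-fold higher, and Ly6d was lower (-1.15). All 7 keratinocyte genes were higher (median 3.85) and 6 of 7 fibroblast genes lower (median -4.62) with all members, and without the mixed barcodes none of 3 and 2 of 3 genes still tested were. None of 2 tested B cell genes (median -0.47) was past 2-fold, nor was the 1 tested T and NK gene (-0.23). Of the sex-linked list, Xist had 267 UMIs in Card14KI and 749 in WT (log2 ratio -0.36), and neither library had a Y-linked UMI.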

How the data were processed

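Single-cell RNA libraries of 1 Card14KI and 1 WT mouse skin were analysed. The authors deposited filtered matrices of raw UMI counts per gene and barcode, made with Cell Ranger 6.0.2 on mm10 per the submitters' processing notes; the file headers name cellranger 5.0.0. The deposited counts held 3348 Card14KI and 5016 WT barcodes with 41460580 and 54816411 UMIs, and 31011 of 31053 genes were located by Ensembl ID in GENCODE vM21.

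Members, gates and 31 gene lists were chosen with earlier results of these data known. UMIs were summed over the members of a library and divided by their total (CPM). Genes with at least 30 UMIs were compared as the log2 ratio of CPM + 10, Card14KI over WT, and called at 2-fold. Named genes were the 12 highest and 12 lowest ratios among genes in at least 10% of members of the higher library and at 2 times the CPM of its other kept barcodes, leaving out mitochondrial, ribosomal, haemoglobin and sex-linked genes; the 12 leading genes against the other barcodes, genes of the membership rule left out; and the 8 leading genes of each gate with at least 10 members. Other genes named come from the lists. Some genes that the rule or the lists hold are not reported here. Intervals are exact Poisson, Clopper-Pearson, Newcombe or conditional binomial at 95% and cover counting error only. UMIs count molecules, but molecules of 1 cell are not independent samples. The floor for a count of 0 is 3 counts. Thinning drew 2000 UMIs per barcode in 1 random draw, and the intervals do not cover the error of that draw.

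Doublets were not removed: Scrublet's automatic threshold marked 0.137% of Card14KI and 0.0461% of WT kept barcodes and was taken not to have worked, so as an alternative the highest scores, up to 0.8% per 1000 barcodes, were removed. Members with at least 20 UMIs of keratinocyte or fibroblast genes were called mixed after the data were seen. The ratio script was tested on simulated counts. Python 3.11.15, numpy 2.4.6, scipy 1.17.1, pandas 2.3.3, scanpy 1.11.5 and matplotlib 3.10.9 were used.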

Additional observations from a re-analysis of the deposited data

How the results depend on the processing

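No paired analysis was possible because each genotype had 1 library. The number of genes higher in Card14KI, 94 of those tested, was 54 at 50 Cd74 UMIs or more, 25 after thinning to 2000 UMIs, 208 at a minimum of 10 UMIs, 316 with no minimum, 36 without the deepest member of each library and 35 without the mixed barcodes, a setting added after seeing the data. The number lower, 177, was 117, 76, 370, 394 and 103 at 50 Cd74 UMIs, after thinning, at 10 UMIs, with no minimum and without the mixed barcodes, and 320 with CPM + 1. Cd74 at 10 UMIs, no C1q UMI, the stricter cell filter, removal of the highest doublet scores, median-of-ratios scaling and equal weights per cell or gate kept both counts within 1.5 times. Equal weights per cell gave 24.7% of calls as higher, against 34.7%. The cause of these changes was not tested, beyond fewer genes reaching the minimum where members or UMIs were fewer.

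Of the 53 genes past 2-fold that the rule named or the lists held, 41 kept their direction in all 12 settings and 18 stayed past 2-fold. These counts do not cover the other genes past 2-fold. Reversed log2 ratios were Cxcl10 -0.73 without its top member, Txndc16 -0.19 and Il1r1 0.41 after thinning, Ccl22 0.45 and Dnajb1 -0.14 at 50 Cd74 UMIs, and Ly6d -1.15 without the mixed barcodes and -0.40 without its top member. Mfge8 reversed to -0.44, -1.26, -0.17, -0.0727 and -0.19 at 50 Cd74 UMIs, after thinning, with equal cells, without the mixed barcodes and without its top member. At 50 Cd74 UMIs, without the mixed barcodes and without the top member, Krt5 was -0.90, -0.20 and -0.15, Krt10 -0.46, -0.13 and -0.17 and Dmkn -0.66, -0.0224 and -0.11; Krt14 was -1.53 and -0.0093 in the first 2 of these and Krt15 -0.21 in the first. List medians that reversed were -0.00616 for Langerhans, 0.0434 for plasmacytoid and -0.46 for keratinocyte genes at 50 Cd74 UMIs, -0.009 for keratinocyte genes without the mixed barcodes and 0.22 for chemokine receptors after thinning. Il1b stayed above 0 throughout, at 0.66 to 1.43, and passed 2-fold after thinning, with equal cells and at 50 Cd74 UMIs. The 49 Card14KI members limit the smallest share that a count of 0 allows to 6.12%, against 2.75% in WT.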
